A study of Mus musculus with 6 samples.

Results

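The nuclear genome encodes most subunits of the oxidative phosphorylation machinery, and 86 of these genes were described here in mouse skin under chronic restraint stress. Members were protein-coding genes chosen by symbol, namely Ndufa, Ndufb, Ndufc, Ndufs and Ndufv (complex I), Sdha to Sdhd (complex II), Uqcr and Cyc1 (complex III), Cycs (cytochrome c), Cox4 to Cox8 (complex IV) and Atp5 (complex V), with a mean of at least 0.1 FPKM. The files listed 88 such gene IDs, and 86 of them were among the 28389 genes that passed the same filter. By the function of their products they were divided into 35 genes of complex I, 4 of complex II, 9 of complex III, Cycs, 20 of complex IV (with Ndufa4 and Ndufa4l2, whose products belong there despite their names), 16 of complex V, and Atp5s, a coupling factor outside the enzyme. Total RNA of skin was sequenced from 3 mice held under chronic restraint stress (CRS) and 3 control mice (CON), all taken at 12 weeks. Strain, sex, age, genotype and body site of the mice are not given in the sources used here. Values were FPKM, fragments scaled to exon length and library size, so levels of different genes within a library are per length.

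Complexes I and II pass electrons from NADH and succinate to ubiquinone, complex III passes them on to cytochrome c, and complex IV reduces oxygen, while complexes I, III and IV pump protons that drive ATP synthesis by complex V. In complexes I and III nuclear subunits were divided here into core and accessory ones, with the core proteins Uqcrc1 and Uqcrc2 in the core. In complex V Atp5a1 and Atp5b were counted as core. In complex IV the catalytic core is encoded by mitochondrial DNA, and every nuclear subunit is accessory. Striated muscle builds complex IV with the isoforms Cox6a2, Cox7a1 and Cox8b in place of Cox6a1, Cox7a2 and Cox8a, which most other tissues use. Brown fat also uses Cox7a1 and Cox8b, so their pairs alone do not tell muscle from non-muscle mitochondria in a mixed tissue. A ratio within a pair also depends on the level of the ubiquitous partner.

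The promoters of 5 of these 6 genes are shown because the isoform comparison below turns on the pairs. Cox6a2 had no entry in the promoter table and is absent from the motif search. Each sequence is the 150 bases before the annotated start from RefSeq on GRCm38.p6, 5′ to 3′ on the gene's strand, and capitals mark the searched motifs, read on both strands.
Cox6a1, chr5:115348959-115349108, reverse strand: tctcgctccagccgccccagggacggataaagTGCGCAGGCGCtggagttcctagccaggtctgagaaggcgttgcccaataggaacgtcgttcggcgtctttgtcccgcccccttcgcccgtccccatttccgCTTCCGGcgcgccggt
Cox7a1, chr7:30184021-30184170, forward strand: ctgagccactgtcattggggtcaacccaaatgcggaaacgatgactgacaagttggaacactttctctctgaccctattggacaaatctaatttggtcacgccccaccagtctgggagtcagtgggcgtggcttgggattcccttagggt
Cox7a2, chr9:79759854-79760003, reverse strand: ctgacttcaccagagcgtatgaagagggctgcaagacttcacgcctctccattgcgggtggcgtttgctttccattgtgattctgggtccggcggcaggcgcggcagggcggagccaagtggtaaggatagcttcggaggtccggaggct
Cox8b, chr7:140900447-140900596, reverse strand: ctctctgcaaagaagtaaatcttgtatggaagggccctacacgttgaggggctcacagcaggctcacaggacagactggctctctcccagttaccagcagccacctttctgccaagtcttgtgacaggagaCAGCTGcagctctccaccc
Cox8a, chr19:7217617-7217766, reverse strand: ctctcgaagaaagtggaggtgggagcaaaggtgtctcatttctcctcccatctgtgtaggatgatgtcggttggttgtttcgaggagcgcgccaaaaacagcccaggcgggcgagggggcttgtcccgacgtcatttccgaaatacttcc
The promoter of Cox6a1 held a match to the NRF-1 motif 118 bases and an ETS motif 16 bases before the start, and the promoter of the muscle isoform Cox8b held an E-box 19 bases before it. The other 3 held no match in these bases. The 5 motifs were searched in the 250 bases before the start for 67 members that matched an entry, against all 27025 genes of the promoter table, and overlapping matches were allowed. The NRF-1 motif, bound by a factor that activates respiratory genes, stood in 9 of the 67 members (13.4%) and in 2.53% of all genes. These 9 were Atp5g2, Atp5k, Cox6a1, Ndufa11, Ndufa5, Ndufb4, Ndufs5, Sdha and Sdhd. The ETS motif (CCGGAAG), the core bound by GABP, stood in 11 members (16.4%) and in 7.83% of all genes. The YY1 motif (AAGATGGC) stood in 1 member, Atp5j (1.49%), against 1.83% of all genes. No member promoter held a MEF2 motif (CTAAAAATA, CTATTTATA or CTAAAATA), against 1.96% of all genes. The E-box CAGCTG, read by myogenic factors among others, stood in 6 members (8.96%) and in 14.7% of all genes. Median GC content of the searched bases was 56.0% in members and 52.4% over all genes, and its part in these shares was not tested.

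The libraries held 13.3 to 25.7 M fragments, as recovered from the spacing of the FPKM values. Keratinocyte markers were high throughout, with Krt5 at 545 to 1214 FPKM and Krt14 at 769 to 1198 FPKM. A pair of libraries stood apart from their groups, and results are therefore also given without them. CON replicate 1 had 13.9% of its fragments on mitochondrially encoded protein genes, against 1.72% to 3.52% in the others, and the highest sum over 24 skeletal muscle markers, 16217 FPKM against 523 to 3469 FPKM. It also carried the transcript Xist at 2.80 FPKM (0.0221 to 0.168 FPKM in the others) beside Y-linked genes found in every library, so whether it is 1 mouse was not tested. CRS replicate 2 had the lowest sum over 53 cytosolic ribosomal protein genes, 14998.5 FPKM against 33837 to 74124 FPKM in the others. In bulk skin, fewer cells of a type and less RNA per cell cannot be told apart, and p-values measure only the spread between these libraries.

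No member passed the test of CRS against CON, and the direction of most members depended on 1 library, CRS replicate 2. With all 6 libraries the log2 fold change (CRS against CON, on log2 of FPKM + 0.1) was below 0 in 82 of 86 members (95.3%), against 67.8% of all genes tested. The members' median was -0.30 and that of all genes -0.20, so the members lay 0.10 below the general shift. Where libraries were scaled by the median ratio of their genes, the median of all genes moved to 0.004 and the members below 0 numbered 53, with 33 above. By limma, 0 of 86 members and 0.0% of all genes had an adjusted p under 0.05, each member's adjusted p being 0.9999. At an unadjusted p under 0.05 there were 0 members in either direction, against 1.63% of all genes lower and 0.919% higher, and limma-voom on recovered fragments called 0 after adjustment, with 2 members lower at an unadjusted p under 0.05 (1.20% of all genes lower in that fit). Every CRS value lay below every CON value in 7 members (8.14%), against 5.19% of all genes. Among these were Ndufab1, Ndufs7, Sdhc, Cox6a2, Ndufa4l2 and Atp5s. The reverse order was found in 0 members and 1.65% of all genes.

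Among the 6 libraries CRS replicate 2 was the lowest for 74 members (86.0%), while this held for 27.9% of all genes. It lay below 1/2 of the mean of CRS replicates 1 and 3 in 57 members (66.3%; all genes, 33.8%), below 1/3 of it in 41 (47.7%; all genes, 28.0%) and below 1/4 of it in 25 members (29.1%; all genes, 24.6%). The 12 members for which another library was lowest were Ndufb2, Ndufs1, Ndufv1, Sdha, Sdhc, Uqcrc1, Uqcrc2, Cox6a2, Cox4i2, Ndufa4l2, Atp5a1 and Atp5b. CON replicate 1 was the highest library for 19 members (22.1%; all genes, 18.0%). Summed over all members, the level was 10134, 10273 and 9712 FPKM in the controls and 12021, 3933 and 12871 FPKM under restraint. That sum was 3.00%, 2.27% and 2.32% of all nuclear-encoded FPKM in CON and 2.17%, 1.17% and 2.22% in CRS, so CRS replicate 2 was lowest on both scales, and CRS replicates 1 and 3 were above CON in FPKM but below it as a share.

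**Figure D1:**
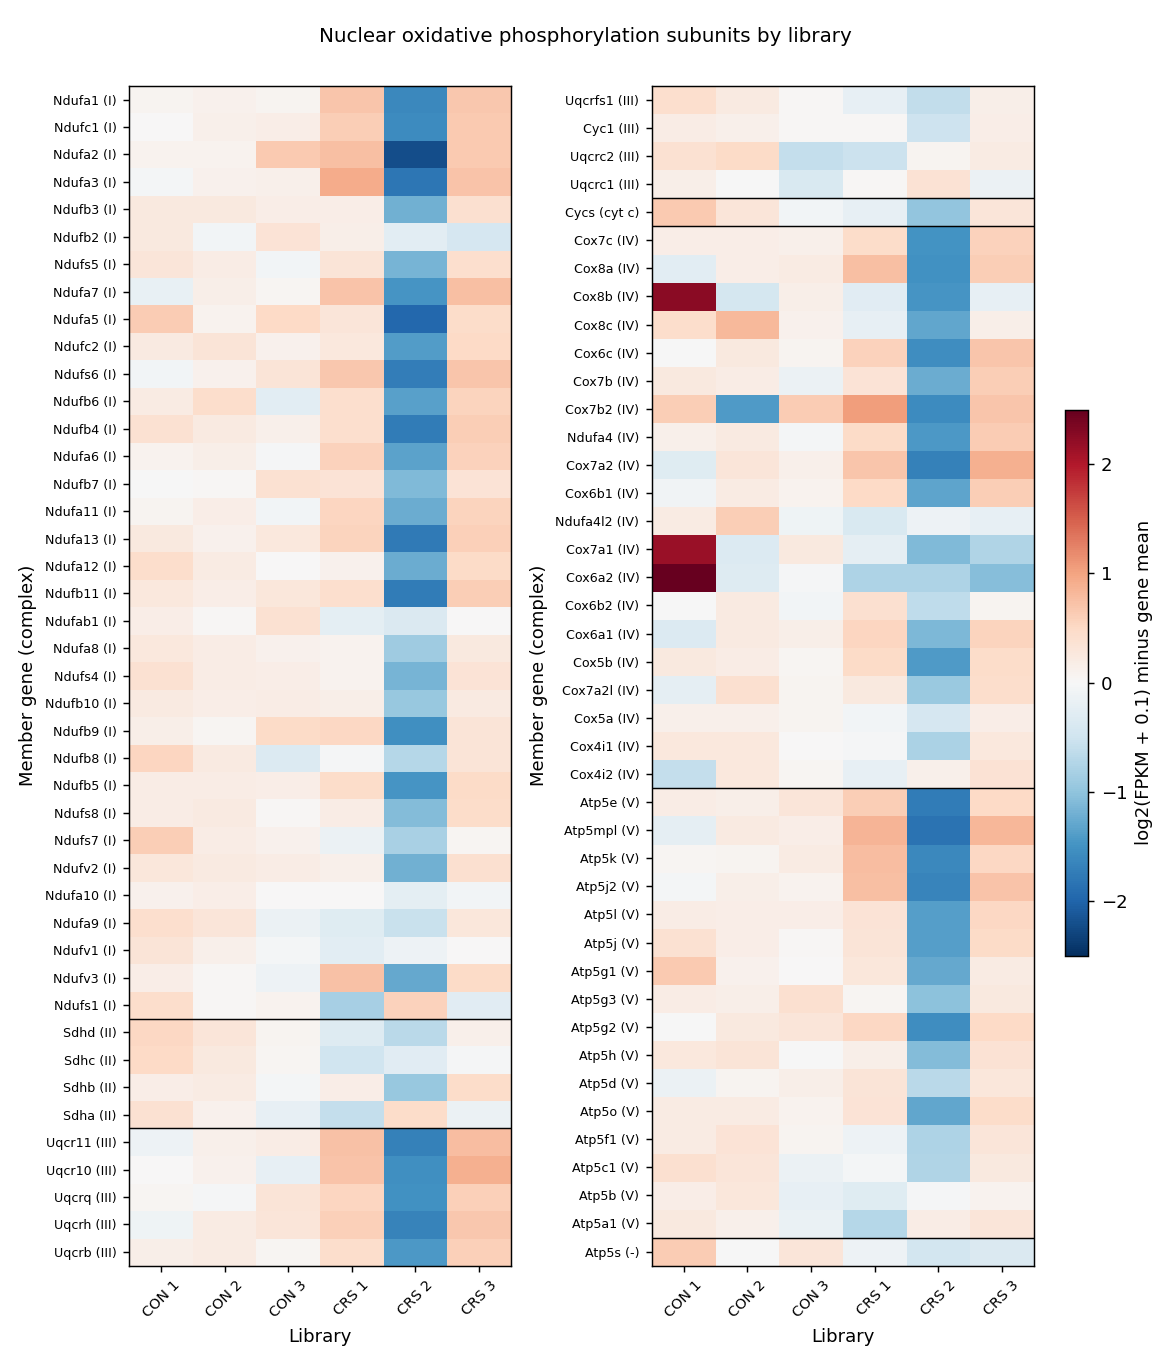
Level of 85 members in each of the 6 libraries, as log2(FPKM + 0.1) minus the member's mean over the libraries (colour scale), with members in rows grouped by complex and libraries in columns. CRS replicate 2 is the lowest library in 73 of the 85 rows.

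Without CRS replicate 2, the members divided. Then 53 members were higher and 33 lower in CRS (38.4% lower; all genes, 61.2%), with a median of 0.20 against -0.21 for all genes. By unadjusted p under 0.05, 15 members were higher (17.4%; all genes, 2.49%) and 1 was lower (1.16%; all genes, 14.6%). Both CRS values lay above all 3 CON values in 36 members (41.9%; all genes, 7.46%) and below them in 8 (9.3%; all genes, 27.4%). These counts are on the FPKM scale, and no other scaling was run without CRS replicate 2. As a share of nuclear-encoded FPKM, the members' sum was 2.17% and 2.22% in CRS replicates 1 and 3, below 2.27% to 3.00% in CON. The share adjusted to p under 0.05 by limma was again 0.0%, the smallest adjusted p of a member being 0.192. Leaving out CON replicate 1 instead gave 82 members lower (all genes, 65.0%) and a median of -0.29, with 1 member lower at an unadjusted p under 0.05 (Cox6a2; all genes, 0.638%) and 0 higher (all genes, 0.564%). Without both libraries 27 members were lower (all genes, 61.1%), with a median of 0.18, and at an unadjusted p under 0.05 17 were higher (all genes, 2.71%) and 1 was lower (all genes, 10.9%).

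In complex I the median log2 fold change was -0.37 over all libraries, -0.14 with median-ratio scaling and 0.19 without CRS replicate 2. The 6 core subunits and the 29 accessory subunits had close medians over all libraries, -0.41 and -0.36, and opposite ones without CRS replicate 2, -0.30 and 0.23. Ndufs1, the largest subunit of the electron-input arm, was at 12.2, 9.15 and 9.55 FPKM in the controls and 4.97, 13.4 and 7.33 FPKM under restraint. Its log2 fold change was -0.37 (SE 0.40), and CRS replicate 2 was the highest of all libraries. With that library left out it was -0.75 (SE 0.24), at an unadjusted p of 0.0252 and a limma adjusted p of 0.233, the only member lower at that level. Ndufs7, which carries the last iron-sulfur cluster before ubiquinone, was at 49.1, 36.4 and 34.4 FPKM in the controls and 28.8, 18.2 and 33.1 FPKM under restraint. All its CRS values lay below all CON values, with a log2 fold change of -0.61 (SE 0.34) and an adjusted p of 0.9999 by limma. Ndufv1, which binds FMN and oxidises NADH, was at 55.2, 48.4 and 42.9 FPKM in the controls and 36.8, 40.3 and 44.6 FPKM under restraint, with overlapping groups. The iron-sulfur proteins Ndufs8 and Ndufv2 were lowest in CRS replicate 2, at 44.6 and 43.3 FPKM, while their other values ran from 95.7 to 132 FPKM.

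Accessory subunits of complex I showed low values in CRS replicate 2 and high values in CRS replicates 1 and 3 side by side. Ndufa2, the member of the complex with the highest mean level, was at 188, 189.5 and 278 FPKM in the controls and 297, 37.9 and 278 FPKM under restraint. Ndufa3 was at 92.6, 103 and 105 FPKM in the controls and 182, 27.4 and 157 FPKM under restraint, and Ndufa7 at 65.7, 82.9 and 78.0 FPKM in the controls and 123, 27.0 and 126 FPKM under restraint. In both, CRS replicates 1 and 3 lay above every control and CRS replicate 2 far below every control. Their log2 fold changes were -0.12 (SE 0.67) and -0.0053 (SE 0.58) over all libraries, and 0.75 (SE 0.18) and 0.73 (SE 0.18) without CRS replicate 2, at a limma adjusted p of 0.192 for each. Both, with Ndufc1, Ndufa5 and Ndufab1 below, Cox5a of complex IV and Atp5j2 of complex V, were chosen after their values were seen. Ndufc1, a small membrane subunit, was at 40.5, 43.7 and 44.9 FPKM in the controls and 61.1, 13.4 and 62.7 FPKM under restraint, with -0.21 (SE 0.57) over all libraries and 0.53 (SE 0.14) without CRS replicate 2. Ndufa5, an accessory subunit of the peripheral arm, was at 108, 74.5 and 99.2 FPKM in the controls and 85.9, 17.9 and 96.1 FPKM under restraint. Its log2 fold change, -0.81 (SE 0.62), was the lowest of the complex, and it was -0.030 (SE 0.22) without CRS replicate 2. Ndufab1, the mitochondrial acyl carrier protein that complex I also holds, was low among the members in FPKM. It was at 9.21, 8.38 and 10.6 FPKM in the controls and 6.90, 6.32 and 8.20 FPKM under restraint. Its exon length was 6883 nt for a coding length of 468 nt, and it had 914 to 1422 recovered fragments. All its CRS values lay below all CON values, as in 5.19% of all genes, and its log2 fold change was -0.39 (SE 0.29).

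Complex II, succinate dehydrogenase, has only nuclear subunits and also works in the citric acid cycle. Its flavoprotein Sdha was at 52.9, 44.1 and 35.1 FPKM in the controls and 27.0, 55.9 and 36.7 FPKM under restraint. Sdhc, a membrane anchor, was at 39.4, 32.7 and 28.6 FPKM in the controls and 19.6, 22.9 and 27.3 FPKM under restraint. For Sdha CRS replicate 2 was the highest library, whereas for Sdhc all CRS values lay below all CON values, the log2 fold changes being -0.19 (SE 0.36) and -0.53 (SE 0.29). The iron-sulfur subunit Sdhb was at 83.8, 86.4 and 72.4 FPKM in the controls and 83.5, 38.8 and 103 FPKM under restraint. The other anchor, Sdhd, was at 121, 105 and 88.8 FPKM in the controls and 67.9, 53.2 and 92.2 FPKM under restraint, with a log2 fold change of -0.59 (SE 0.34). Both were lowest in CRS replicate 2, and without it Sdhb had 0.20 (SE 0.19) and Sdhd -0.39 (SE 0.23). As a share of the summed FPKM of all members, complex II was 2.93%, 2.61% and 2.32% in CON and 1.65%, 4.34% and 2.01% in CRS, highest in CRS replicate 2. The median log2 fold change of its 4 genes was -0.37 over all libraries, -0.13 with median-ratio scaling and -0.43 without CRS replicate 2, while the medians of complexes I, III, IV and V were above 0 without that library.

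In complex III the median was -0.22 over all libraries, and above 0 with median-ratio scaling (0.016) and without CRS replicate 2 (0.38). The 4 core genes had a median log2 fold change of -0.20 and the 5 small accessory ones -0.24, which became -0.13 and 0.49 without CRS replicate 2. Uqcrfs1, the Rieske iron-sulfur protein, was at 111, 97.3 and 84.4 FPKM in the controls and 71.8, 53.9 and 91.2 FPKM under restraint, with a log2 fold change of -0.45 (SE 0.33). Cyc1, cytochrome c1, was at 79.6, 76.1 and 71.4 FPKM in the controls and 71.3, 48.8 and 78.1 FPKM under restraint, the groups overlapping. The core protein Uqcrc2 was at 64.3, 68.7 and 32.6 FPKM in the controls and 34.1, 52.1 and 57.1 FPKM under restraint, with CON replicate 3 lowest. Its partner Uqcrc1, present in the enzyme in equal number, was listed at only 1.59, 1.41 and 1.07 FPKM in the controls and 1.45, 1.86 and 1.27 FPKM under restraint, and why it was so low was not tested. Uqcr10, a small subunit near cytochrome c1 and the highest of the complex, was at 350.3, 376 and 301 FPKM in the controls and 569.9, 119.9 and 647 FPKM under restraint. Its log2 fold change was 0.052 (SE 0.66) over all libraries and 0.83 (SE 0.27) without CRS replicate 2, at an unadjusted p of 0.0268 and a limma adjusted p of 0.237. All 5 small subunits were lowest in CRS replicate 2 and higher in CRS replicates 1 and 3 than in any control. Cycs, the carrier between complexes III and IV, was at 74.4, 58.0 and 45.1 FPKM in the controls and 40.9, 23.8 and 58.6 FPKM under restraint, with a log2 fold change of -0.59 (SE 0.40) and -0.24 (SE 0.28) without CRS replicate 2.

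Complex IV held the members with the highest levels, and its median log2 fold change was -0.20 over all libraries but above 0 with median-ratio scaling (0.038) and without CRS replicate 2 (0.28). Cox8a, a membrane subunit, was at 498, 671 and 686 FPKM in the controls and 1002, 209 and 916 FPKM under restraint. Cox6b1, which links the monomers of the dimer on the intermembrane side, was at 442, 544 and 499 FPKM in the controls and 667, 189 and 723 FPKM under restraint. Cox6a1, another dimer contact, was at 322, 481 and 455 FPKM in the controls and 596, 187 and 601 FPKM under restraint. In all 3 genes CRS replicates 1 and 3 exceeded every control, and CRS replicate 2 lay below every control. The median over the 11 ubiquitous subunits was -0.20 over all libraries and 0.46 without CRS replicate 2, all 11 being below 0 in the first (3 with median-ratio scaling) and 9 above 0 in the second. Cox5a, a matrix-side subunit, varied less, at 35.1, 35.3 and 33.9 FPKM in the controls and 30.6, 24.1 and 35.9 FPKM under restraint. Cox4i1, the main isoform of the largest nuclear subunit, was at 241, 241 and 200.01 FPKM in the controls and 196, 116 and 239 FPKM under restraint, with a log2 fold change of -0.37 (SE 0.40).

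The muscle isoforms of complex IV had the largest fold changes of all members with all 6 libraries, and their level was highest in CON replicate 1, the library rich in muscle markers. Cox6a2 was at 421, 42.8 and 52.9 FPKM in the controls and 31.6, 31.7 and 25.6 FPKM under restraint. Cox7a1 was at 85.0, 15.0 and 22.6 FPKM in the controls and 16.2, 8.79 and 11.3 FPKM under restraint. Cox8b was at 182, 27.9 and 41.8 FPKM in the controls and 30.9, 13.6 and 32.7 FPKM under restraint. CON replicate 1 was far above the rest for all 3, and the groups did not overlap for Cox6a2 and overlapped for the other two. The log2 fold change of Cox6a2 was -1.74 (SE 0.78), with an unadjusted limma p of 0.0542, an adjusted p of 0.9999 and an exact two-sided permutation p of 0.1, the smallest that 3 against 3 allows. For Cox7a1 it was -1.38 (SE 0.61) and for Cox8b -1.31 (SE 0.68). Without CON replicate 1 the values were -0.69 (SE 0.27), -0.65 (SE 0.38) and -0.51 (SE 0.48), that of Cox6a2 with an unadjusted limma p of 0.0483 and an adjusted p of 1. Without that library the fold changes of these 3 isoforms were no longer the largest, Ndufa5 being at -0.70 (SE 0.80). With the muscle marker mean as a covariate the 3 log2 fold changes were -0.91, -0.9995 and -1.02, at an unadjusted limma p of 0.211, 0.151 and 0.210. Without both CON replicate 1 and CRS replicate 2 they were -0.74, -0.44 and -0.10.

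**Figure D2:**
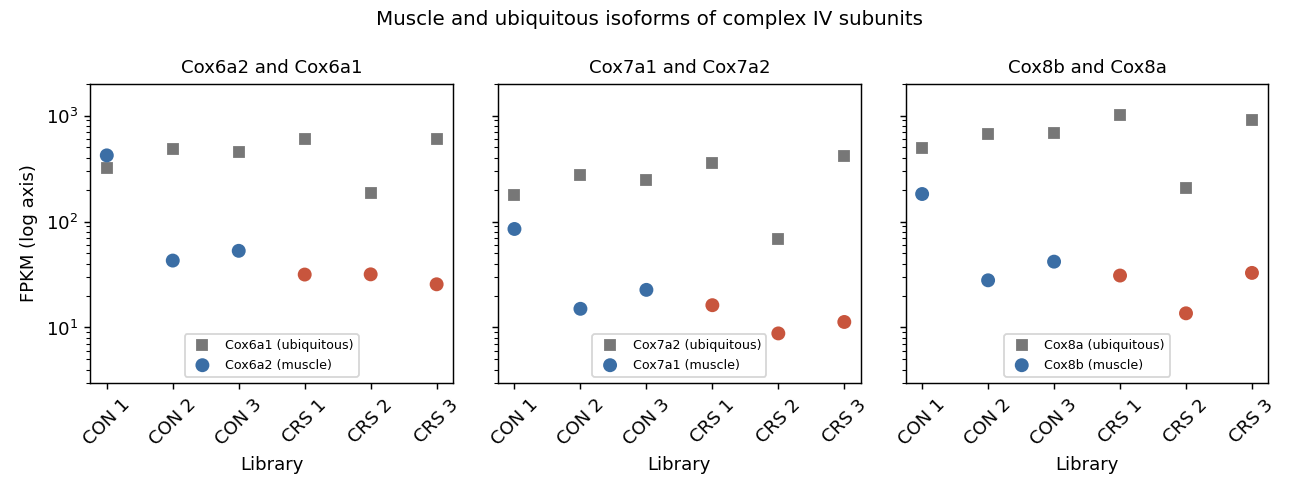
FPKM (log axis) of the muscle isoform and its ubiquitous partner in each of the 6 libraries, 1 panel per pair, 1 point per library. The muscle isoforms peak in CON replicate 1, at 421, 85.0 and 182 FPKM, and all 3 ubiquitous partners are lowest in CRS replicate 2.

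Set against its partner within each library, Cox6a2 was 131%, 8.89% and 11.6% of Cox6a1 in CON and 5.30%, 17.0% and 4.25% in CRS. Cox7a1 was 47.5%, 5.48% and 9.29% of Cox7a2 in CON and 4.55%, 12.8% and 2.74% in CRS. Cox8b was 36.5%, 4.15% and 6.10% of Cox8a in CON and 3.08%, 6.50% and 3.57% in CRS. In every pair the order was CON replicate 1, CRS replicate 2, CON replicate 3, CON replicate 2, and last CRS replicates 1 and 3. The groups therefore overlapped, and the differences between groups were smaller than the SD of the controls. All 3 partners were lowest in CRS replicate 2, and so were Cox7a1 and Cox8b themselves, at 8.79 and 13.6 FPKM. For Cox6a2 the lowest library was CRS replicate 3. The log2 ratio in CRS minus that in CON was -1.71, -1.31 and -1.23, with an SD of 2.13, 1.62 and 1.67 in CON and 1.07, 1.14 and 0.57 in CRS (n = 3 each, exact two-sided permutation p of 0.3, 0.4 and 0.3, adjusted p of 0.4 for each over the 3 pairs). Without CON replicate 1 these differences were -0.49, -0.39 and -0.28.

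The 24 skeletal muscle markers, averaged as log2(FPKM + 0.1), stood at 7.09, 3.63 and 4.54 in CON and 1.84, 5.58 and 2.54 in CRS. Their order over the libraries was that of the ratios, apart from the order of CRS replicates 1 and 3 in the first 2 pairs. The FPKM of the 3 muscle isoforms did not follow this order. Cox7a1 and Cox8b were lowest in CRS replicate 2, where the marker mean was 5.58. All 24 markers had a log2 fold change below 0 (23 with median-ratio scaling), with a median of -1.85, and -0.85 without CON replicate 1, where 21 were below 0. Without CRS replicate 2 all 24 were below 0 (all genes, 61.2%), with a median of -2.79. Of these, 14 had an unadjusted limma p under 0.05, where 14.6% of all genes and 23.6% of protein-coding genes were lower at that p. Acta1, skeletal actin, was at 3335, 457 and 755 FPKM in the controls and 136, 1002 and 209 FPKM under restraint. Heart and slow-fibre markers were near 0, with Myh7 at 0.0271 to 0.367 FPKM, and the sum over the 12 markers of that list was 5.49 to 9.72 FPKM. Ucp1, which defines brown fat, another tissue that uses Cox7a1 and Cox8b, was at 0.0950 to 1.53 FPKM. The sum over the 10 markers of thermogenic fat was 59.2 to 171 FPKM, and 5 of the 9 tested had a log2 fold change above 0, with a median of 0.19. Elovl3 and Cidea stand both in that list and among the sebocyte markers. Of the markers of other skin cells, 9 of 10 fibroblast, 9 of 10 sebocyte and 11 of 12 keratinocyte markers had log2 fold changes above 0. Their medians were 0.76, 0.72 and 0.47, while 67.8% of all genes were below 0. Of 10 white fat markers 5 were above 0, with a median of -0.075, and 3 were above 0 without CRS replicate 2. Without CRS replicate 2 the keratinocyte median was 0.082. Fibroblast markers summed to 294 FPKM in CON replicate 1 and 926 to 1440.5 FPKM in the other libraries, and without CON replicate 1 their median was -0.044. The part of these cell types in the members' values was not tested.

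**Figure D3:**
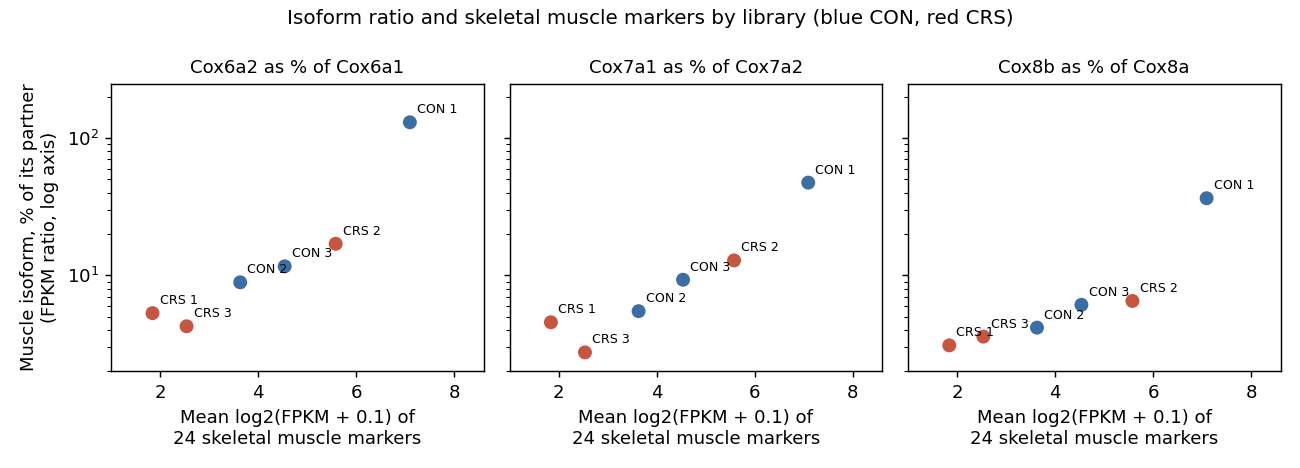
Muscle isoform as a percent of its ubiquitous partner (log axis) against the mean log2(FPKM + 0.1) of 24 skeletal muscle markers, 1 point per library, CON blue and CRS red, 1 panel per pair. CON replicate 1 is at the top right in every panel, and CRS replicate 2 lies nearer to it than CRS replicates 1 and 3 do. The ubiquitous partners are all lowest in CRS replicate 2.

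Other tissue-restricted isoforms of complex IV were low. Cox4i2, the isoform of lung and of oxygen-sensing cells, was at 2.82, 5.22 and 4.49 FPKM in the controls and 3.76, 4.74 and 5.59 FPKM under restraint, which was 1.17% to 4.09% of Cox4i1. Cox6b2, the testis isoform, was at 2.96, 3.49 and 2.85 FPKM in the controls and 3.99, 1.89 and 3.15 FPKM under restraint, which was 0.436% to 1.00% of Cox6b1. For both, the groups overlapped, and the share of the ubiquitous partner was highest in CRS replicate 2, where the partner was lowest. Ndufa4l2, a paralog of Ndufa4 induced by low oxygen, was at 18.5, 24.6 and 14.9 FPKM in the controls and 12.4, 14.8 and 13.8 FPKM under restraint, all CRS values lying below all CON values, with a log2 fold change of -0.47 (SE 0.30). Ndufa4 itself was at 211, 225 and 186 FPKM in the controls and 269, 71.3 and 300.3 FPKM under restraint, with overlapping groups. Cox7b2 rested on 1 to 10 fragments and Cox8c on 0 to 3, at 0.0717 to 0.959 FPKM and 0 to 0.329 FPKM, so no fold change is given for either. Cox7b, the ubiquitous partner of Cox7b2, was at 239, 231 and 183 FPKM in the controls and 257, 85.1 and 309 FPKM under restraint.

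In complex V, ATP synthase, all 16 members had a log2 fold change below 0, with a median of -0.35 (-0.11 with median-ratio scaling, where 6 members were above 0), and 10 of them were above 0 without CRS replicate 2, with a median of 0.22. The catalytic subunit Atp5b was the highest of the complex, at 266, 292 and 206 FPKM in the controls and 193, 234 and 255 FPKM under restraint. Its partner in the catalytic ring, Atp5a1, was listed at 6.31, 5.79 and 4.73 FPKM in the controls and 3.20, 6.01 and 6.54 FPKM under restraint. For both, CRS replicate 1 was the lowest library, the groups overlapped and the log2 fold changes were -0.16 (SE 0.37) and -0.15 (SE 0.37). The proton-turned c ring is built from 1 protein made by Atp5g1, Atp5g2 and Atp5g3. Atp5g1 was at 37.8, 26.0 and 24.3 FPKM in the controls and 29.4, 9.76 and 27.7 FPKM under restraint. Atp5g2 was at 127, 150.5 and 158 FPKM in the controls and 182, 43.4 and 181 FPKM under restraint. Atp5g3 was at 143, 140.1 and 167 FPKM in the controls and 129.9, 62.0 and 149.5 FPKM under restraint. In FPKM, Atp5g1 was far below Atp5g2 and Atp5g3 in every library, while Atp5g2 exceeded Atp5g3 in CON replicate 2 and CRS replicates 1 and 3. Exon lengths of the 3 genes were 4912, 1675 and 2181 nt, and coding lengths 408, 438 and 423 nt. Recovered fragments ran from 1234 to 3515, 1872 to 7650 and 3480 to 8219. The part of exon length in the low FPKM of Atp5g1 was not tested. Log2 fold changes of the 3 genes were -0.53 (SE 0.46), -0.36 (SE 0.57) and -0.49 (SE 0.41). Without CRS replicate 2 they were -0.013 (SE 0.23), 0.33 (SE 0.20) and -0.10 (SE 0.20). Atp5j2, a membrane subunit of the Fo part, was at 75.9, 87.2 and 83.7 FPKM in the controls and 134, 25.2 and 130.4 FPKM under restraint. Both higher CRS values exceeded every control, giving 0.68 (SE 0.16) without CRS replicate 2, at a limma adjusted p of 0.192, and -0.11 (SE 0.62) with it. Atp5s, coupling factor B, was at 6.12, 3.89 and 4.87 FPKM in the controls and 3.54, 2.82 and 3.04 FPKM under restraint, with a log2 fold change of -0.63 (SE 0.33) and no overlap of the groups.

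**Figure D4:**
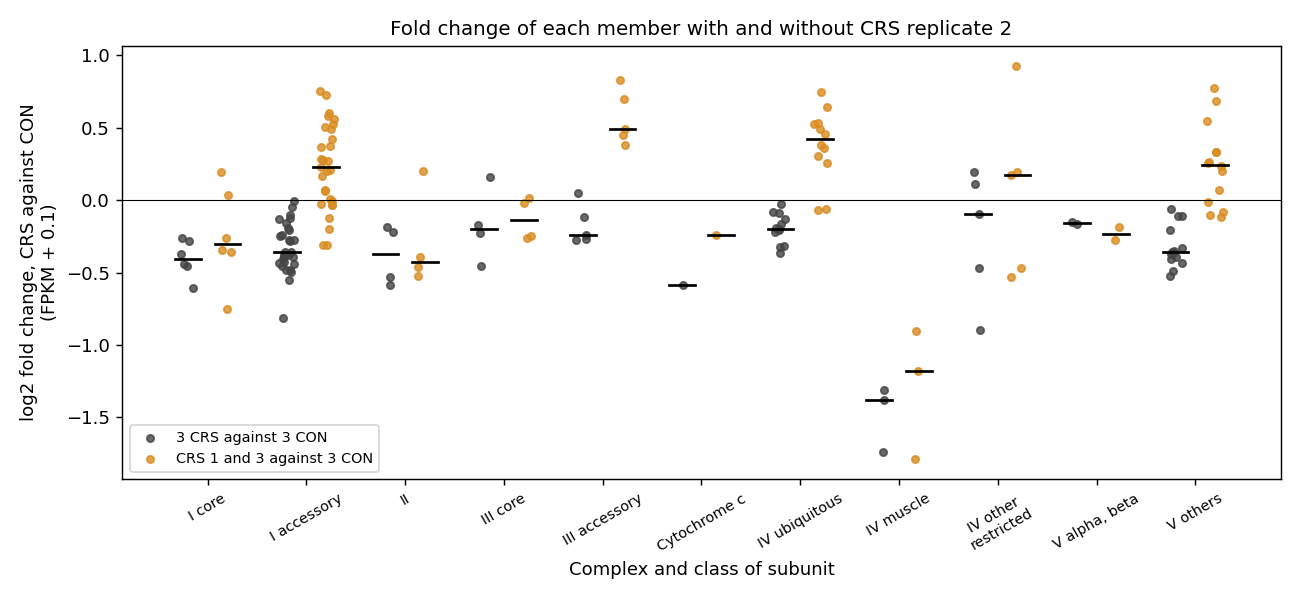
Log2 fold change of each member, CRS against CON on log2(FPKM + 0.1), by complex and class of subunit, 1 point per gene, from all 6 libraries and from the 5 without CRS replicate 2. Without that library most accessory subunits move above 0, with a median of 0.23 in complex I and 0.49 in complex III, while the muscle isoforms lie between -1.79 and -0.90.

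Over complexes, the 17 core genes of complexes I to III, cytochrome c and complex V had a median log2 fold change of -0.28 (16 below 0), and -0.26 without CRS replicate 2 (13 below 0). The other 69 members had -0.31 (66 below 0) and 0.26 (20 below 0). The classes also differed in size of gene. Median coding length was 975 nt in the core and 348 nt in the rest, against 1314 nt over 11781 protein-coding genes of at least 1 FPKM.

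Across genes, differences between libraries went with coding length, and members followed the general course while lying to one side of it. CRS replicate 2 minus the mean of the other libraries, on the log2 scale, had a median of -1.85 over 22 members with under 300 nt, -1.44 over 41 with 300 to under 600 nt, -0.91 over 12 with 600 to under 1200 nt and 0.09 over 9 with 1200 nt or more. For all protein-coding genes the medians in these classes were -0.99, -0.58, 0.11 and 0.76. CRS replicates 1 and 3 minus CON showed the reverse course, with 0.49, 0.20, -0.10 and -0.26 in members and 0.34, 0.0088, -0.33 and -0.61 in all protein-coding genes. In every class, members lay below all genes in CRS replicate 2 and above them in CRS replicates 1 and 3. Across 84 members Spearman's rho between coding length and these differences was 0.67 and -0.56, as a description of genes measured in the same libraries. Cytosolic ribosomal protein genes, also short, took the same direction, with medians of -1.98 and 0.74 over 27 genes of 300 to under 600 nt. When a smooth trend on gene length was removed from each library, 60 of 86 members had a log2 fold change below 0, with a median of -0.13 against 0.02 for all genes.

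**Figure D5:**
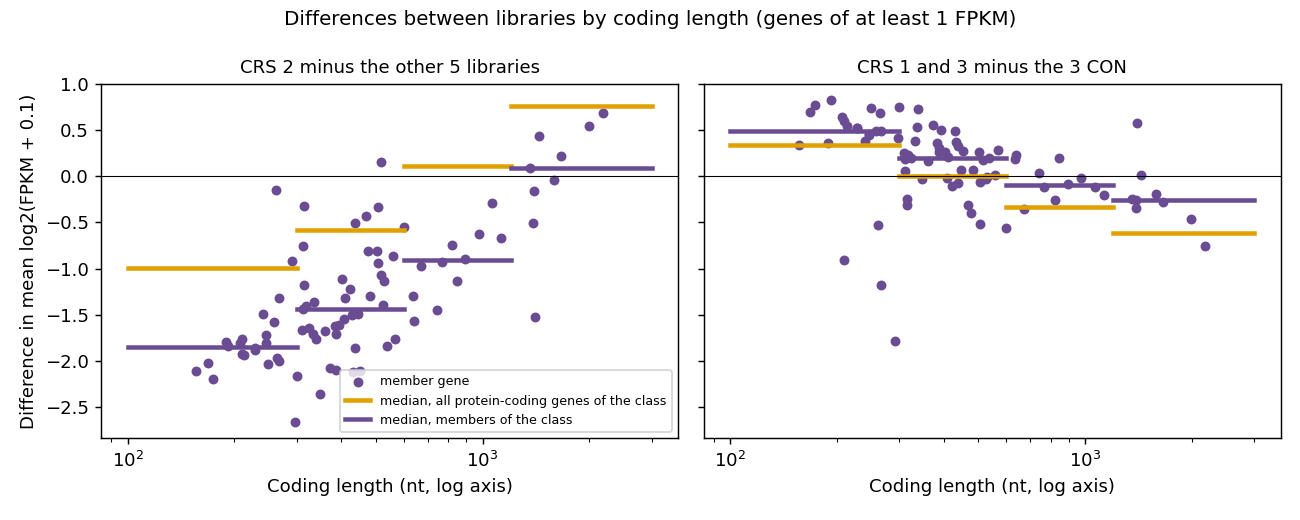
Difference between libraries on the log2(FPKM + 0.1) scale against coding length (nt, log axis), 1 point per member of at least 1 FPKM, with bars for the median of members and of all protein-coding genes in each length class. CRS replicate 2 minus the others rises with length, from a median of -1.85 in members under 300 nt to 0.09 in those of 1200 nt or more, and CRS replicates 1 and 3 minus CON falls.

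Other genes of the pathway were counted in the same fit, where 67.8% of all genes and 71.0% of protein-coding genes were below 0. Without CRS replicate 2 these shares were 61.2% and 72.7%. Among protein-coding genes of 1200 nt or more and at least 1 FPKM, 5845 of 6527 were below 0 in CRS replicates 1 and 3 minus CON. Their median was -0.61, and the part of coding length in the counts below was not tested. Of 43 tested assembly factors, which build the complexes without staying in them, 41 had a log2 fold change below 0, with a median of -0.39 (32 with median-ratio scaling). Without CRS replicate 2, 34 were below 0, with a median of -0.40, and at an unadjusted p under 0.05 10 were lower and 2 higher, where 23.6% of protein-coding genes and 14.6% of all genes were lower at that p. With all 6 libraries 1 of the 43 was lower at an unadjusted limma p under 0.05 and 0 were higher (all genes, 1.63% and 0.919%). This was Ndufaf5, which modifies Ndufs7, at 10.7, 8.10 and 7.32 FPKM in the controls and 5.52, 4.08 and 5.48 FPKM under restraint. Of 14 tested regulators of respiratory genes, 12 were below 0 (median -0.44; 9 with median-ratio scaling), and all 14 without CRS replicate 2 (median -0.83), 9 of them at an unadjusted p under 0.05, beside the same 23.6% of protein-coding genes. Tfam, which packages mitochondrial DNA, was at 11.1, 9.39 and 9.70 FPKM in the controls and 4.41, 7.64 and 6.50 FPKM under restraint. Gabpa, a GABP subunit, was at 9.78, 7.68 and 6.50 FPKM in the controls and 3.67, 12.5 and 4.63 FPKM under restraint, highest in CRS replicate 2, where most members were lowest. The 17 citric acid cycle genes were all below 0 (median -0.29; 11 with median-ratio scaling), also without CRS replicate 2 (median -0.60), then 6 at an unadjusted p under 0.05, again beside 23.6%. All 13 mitochondrially encoded subunit genes were below 0, with a median of -1.39, which was -0.42 without CON replicate 1. The catalytic subunit mt-Co1 was at 33213.5 FPKM in CON replicate 1 and 3873 to 9047 FPKM in the other libraries. None of these genes had a limma adjusted p under 0.05.

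A few members were listed far below subunits they are matched with in the enzyme, and others share exon sequence. Ndufs3, a core subunit of complex I, had a mean of 0.0832 FPKM and was below the filter, and so was a second ID with the symbol Atp5o, at 0 FPKM in every library. Exon bases shared with another gene made up 4.04% of Ndufs3, 4.11% of Atp5a1 and 0% of Uqcrc1. The part of such sharing in the low levels was not tested. Exon bases shared with another gene on either strand made up 47.9% of Atp5o, 39.0% of Ndufb6, 29.98% of Ndufa13, 19.7% of Uqcrc2 and 19.5% of Ndufb9, and whether the counting used strand was not given in the sources used here, so the levels of these 5 are uncertain.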

How the data were processed

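Total RNA of skin from 6 mice, 3 under chronic restraint stress and 3 controls at 12 weeks, was isolated with Trizol, and Illumina libraries were made from 1 µg, per the labels' protocols. The deposited values were FPKM per Ensembl gene ID from the authors, 1 file per library. The aligner was HISAT2 and the build GRCm39, per the submitters' processing notes. Which program counted fragments, on which annotation, and all versions are not given in the sources used here. GENCODE M21, which annotates GRCm38, gave symbols, gene types and lengths and held 54079 of 54146 IDs. Promoters came from RefSeq GRCm38.p6, which held entries for 67 of the 86 members.

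Depths of 13.3 to 25.7 M fragments were recovered from the spacing of FPKM times exon length (98.1% to 98.3% of values up to 100 fragments lay within 0.05 of a whole number). These served for depth and for a limma-voom alternative, since the counting was not given.

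All 28389 genes averaging 0.1 FPKM or more entered limma 3.58.1 (R 4.3.3) as log2(FPKM + 0.1), with a mean-variance trend, two-sided, and Benjamini-Hochberg adjustment over all genes at 0.05. Fold changes on this scale understate the change of low genes. Isoform ratios were compared by exact permutation. Members and gene lists were chosen with earlier results of these data known. Named in the text were the muscle isoforms and other restricted isoforms with their partners, the c-subunit genes, the core subunits, and per complex the highest gene and the 2 with the lowest p, while others were named after their values were seen. Alternatives were other pseudocounts, filters, scalings, a replicate block, array weights, a muscle covariate, leaving out each library, a gene length correction and limma-voom. The fit was tested on simulated data. No outlier test was made, as groups held 3 libraries. The values of 1 member are not reported here, though the counts include it.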

Additional observations from a re-analysis of the deposited data

How the results depend on the processing

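Each alternative changed 1 choice, and the fit without both CON replicate 1 and CRS replicate 2 was added after seeing the data. Under every alternative run, 0 genes and 0 members had an adjusted p under 0.05. Members with a log2 fold change below 0 numbered 82 of 86, with 53 under median-ratio scaling and 60 after removal of the gene length trend. They numbered 23 with array weights and 27 without both CON replicate 1 and CRS replicate 2. With 1 library left out they numbered 33 to 84, 33 being the value without CRS replicate 2. They numbered 86 after rescaling to nuclear-encoded genes, 81 with quantile normalization and 81 with the muscle marker mean as a covariate. Array weights were 0.66, 0.16 and 5.42 for CRS replicates 1, 2 and 3, and 1.00, 1.32 and 1.31 for the controls. The CRS side of every value with array weights therefore rests mostly on CRS replicate 3. The members' median ranged from -0.59 to 0.20 with 1 library left out. Their median minus that of all genes was 0.58 with array weights, against -0.10. It was -0.079 after rescaling to nuclear-encoded genes, -0.39 with quantile normalization and -0.60 with the muscle covariate. The median of complex II was -0.13 under median-ratio scaling and -0.62 after rescaling to nuclear-encoded genes, and Cycs was at -0.042 with array weights. The differences in log2 isoform ratio ranged, with 1 library left out, from -2.42 to -0.49 (Cox6a2), -1.95 to -0.39 (Cox7a1) and -1.84 to -0.28 (Cox8b), and in each pair the value nearest 0 came without CON replicate 1. No cause was tested for these changes beyond the construction of each alternative.

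With the replicate number as a block (replicate block), 82 members were below 0, the median was -0.30, and 3 members, Cox6a2, Cox7a1 and Cox8b, had an unadjusted limma p under 0.05 (0.0292, 0.0164 and 0.0331), as did 1.30% of all genes lower and 0.902% higher, and 0 members an adjusted one. Deviations from the group means of libraries with the same number correlated at -0.12, 0.062 and 0.087, and each control correlated best with a library of another number, so the numbers were not taken to pair the mice.

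Members named with their levels changed the sign of their log2 fold change as follows, none being past the adjusted threshold. Ndufa5, Ndufab1, Cox5a, Cox7b2 and Cox8c were not followed in this list. Ndufa5 was at 0.080 without both CON replicate 1 and CRS replicate 2, against -0.81 over all libraries. With a pseudocount of 1 the new value was Ndufa7 5.9e-05. With median-ratio scaling the new values were Atp5a1 0.088, Atp5b 0.079, Atp5j2 0.13, Cox6a1 0.22, Cox6b1 0.11, Cox6b2 0.14, Cox7a2 0.16, Cox7b 0.048, Cox8a 0.16, Cyc1 0.016, Ndufa3 0.12, Ndufa4 0.035, Ndufa7 0.23, Ndufc1 0.032, Sdha 0.052, Sdhb 0.022 and Uqcrc2 0.072. With rescaling to nuclear-encoded genes the new values were Cox4i2 -0.052, Uqcr10 -0.20 and Uqcrc1 -0.077. With quantile normalization the new values were Atp5a1 0.029, Cox6b2 0.17 and Uqcr10 -0.32. With array weights the new values were Atp5a1 0.13, Atp5g2 0.26, Atp5j2 0.60, Cox4i1 0.030, Cox6a1 0.47, Cox6b1 0.47, Cox6b2 0.039, Cox7a2 0.73, Cox7b 0.45, Cox8a 0.51, Cyc1 0.021, Ndufa2 0.29, Ndufa3 0.59, Ndufa4 0.47, Ndufa7 0.67, Ndufc1 0.48, Ndufs8 0.26, Ndufv2 0.11, Sdhb 0.28, Uqcrc1 -0.024 and Uqcrc2 0.064. With the muscle marker mean as a covariate the new values were Atp5a1 0.052, Ndufs1 0.065, Sdha 0.15 and Uqcr10 -0.60. With removal of the gene length trend the new values were Atp5a1 0.078, Atp5b 0.070, Atp5j2 0.12, Cox6a1 0.13, Cox6b1 0.026, Cox6b2 0.061, Cox7a2 0.069, Cox8a 0.083, Ndufa3 0.035, Ndufa7 0.19, Sdha 0.043 and Uqcrc2 0.046. With both CON replicate 1 and CRS replicate 2 left out the new values were Atp5g1 0.18, Atp5g2 0.24, Atp5j2 0.63, Cox4i2 -0.076, Cox6a1 0.36, Cox6b1 0.41, Cox6b2 0.16, Cox7a2 0.57, Cox7b 0.46, Cox8a 0.50, Cyc1 0.017, Ndufa2 0.32, Ndufa3 0.70, Ndufa4 0.47, Ndufa7 0.63, Ndufc1 0.48, Ndufs8 0.21, Ndufv2 0.062 and Sdhb 0.23. With 1 library left out, the fold changes that changed sign ranged as follows: Atp5a1 from -0.34 to 0.17, Atp5g2 from -0.70 to 0.33, Atp5j2 from -0.52 to 0.68, Cox4i2 from -0.061 to 0.37, Cox6a1 from -0.31 to 0.54, Cox6b1 from -0.47 to 0.49, Cox6b2 from -0.32 to 0.19, Cox7a2 from -0.55 to 0.74, Cox7b from -0.55 to 0.38, Cox8a from -0.48 to 0.65, Ndufa2 from -1.06 to 0.42, Ndufa3 from -0.61 to 0.75, Ndufa4 from -0.58 to 0.46, Ndufa7 from -0.38 to 0.73, Ndufc1 from -0.58 to 0.53, Ndufs8 from -0.58 to 0.19, Ndufv2 from -0.77 to 0.037, Sdha from -0.46 to 0.061, Sdhb from -0.50 to 0.20, Uqcr10 from -0.38 to 0.83, Uqcrc2 from -0.51 to 0.057.

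Depth limits Cox8c and Cox7b2, which rest on 0 to 3 and 1 to 10 fragments, and 3 libraries per group limit every comparison.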
